A study of Mus musculus with 6 samples.

Results

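The genes described here make melanin or build the melanosome, the organelle that holds it, and were read on arrays of mouse optic fissure at E11.5. They were chosen by name: Tyr, Tyrp1, Dct, Pmel, Slc45a2, Slc24a5, Rab38, Oca2, Gpr143 and Trpm1. Every probe set whose only gene symbol in the platform annotation was one of these was used, which gave 18 probe sets for 9 of the 10 genes, out of 45037 probe sets and 18193 genes on the array. No probe set was named for Slc24a5, which was not analysed here.

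The optic fissure is the groove on the ventral side of the optic cup that closes as the eye forms. Tissue was laser microdissected from C57BL/6J embryos and hybridised to Affymetrix arrays. All embryos carried loxP-flanked alleles of both FGF receptor genes (Fgfr1fx/fx;Fgfr2fx/fx), the controls included. The 3 control arrays were Six3Cre-, and the 3 FGFR mutant arrays were Six3Cre+, a transgene that drives recombination in the early eye field under Six3 regulatory sequence, so cells that never expressed it keep their receptors. Arrays carry the title numbers 8711, 9216 and 9266, each given to 1 control and 1 mutant. Whether each array came from its own embryo or from a pool is not in the labels, so p-values cover only the spread among these arrays, which may be technical, and the small number of arrays limits the precision. Because this is bulk tissue, more pigmented cells and more RNA per pigmented cell cannot be told apart.

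Melanin is made from tyrosine in both pigment lineages, the retinal pigment epithelium of the optic cup and the melanocytes of the neural crest. Tyrosinase, encoded by Tyr, carries out the rate-limiting oxidation, and its relatives Tyrp1 and Dct act on later intermediates. Pmel forms the fibrils on which melanin is laid down, transporters and channels such as Slc45a2, Slc24a5 and Oca2 set the conditions inside the organelle, and Rab38 delivers enzymes to it. Mitf, the transcription factor that directs pigment cell identity, binds E-box sequences in the promoters of many of these genes, among them CATGTG and its longer form TCATGTG.

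Promoters are shown to place these sequences in the genes. RefSeq promoters (GRCm38.p6) were searched for 6 of the 10 genes, Tyr, Tyrp1, Dct, Slc24a5, Oca2 and Trpm1, with 7 start sites in all, and those of Pmel, Slc45a2, Rab38 and Gpr143 were not analysed here. Within 250 bases before the start, CATGTG was found on either strand in a promoter of each of the 6 genes, and in 6 of the 7 promoters, against 12.3% of 32851 promoters of the same length. TCATGTG, which contains CATGTG, was found in 5 of the 6 genes, all but Oca2, against 3.25% of all promoters. Each match is printed below with 10 bases on either side of CATGTG, read 5′ to 3′ on the strand that holds the motif, with TCATGTG, or CATGTG in Oca2, in capitals.

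Tyr, chr7:87493518-87493543, minus strand: aaaagttagTCATGTGctttgcagaa

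Tyrp1, chr4:80834157-80834182, plus strand: gggagggagTCATGTGctgcctagta

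Dct, nearer match, chr14:118052381-118052406, minus strand: cacttagggTCATGTGctaacaaaga

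Dct, farther match, chr14:118052463-118052488, plus strand: ttattgggcTCATGTGtcccagccaa

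Trpm1, chr7:64153684-64153709, plus strand: aaatcctcaTCATGTGcccaccccaa

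Slc24a5, chr2:125068104-125068129, minus strand: tatgctgaaTCATGTGagcagtctcc

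Oca2, chr7:56239563-56239588, minus strand: aaattccagcCATGTGtagcaagctc

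The Tyr and Tyrp1 matches lie within the 11-base M-box AGTCATGTGCT, a motif of pigment cell promoters. Searched on both strands, after the promoter sequences had been seen, the M-box was in 7 of all 32851 promoters (0.0213%), and Tyr and Tyrp1 were 2 of these 7. CATGTG began 21 bases before the start in Tyr, 46 in Tyrp1, 150 and 232 in Dct, 141 in Trpm1, 13 in Slc24a5 and 186 in Oca2. The other E-box form, CACGTG, was in 1 member gene, at a start of Trpm1 inside the gene, against 6.02% of all promoters, and TCACGTG, which contains it, in 0 of the 6 genes against 3.13%. TAATCC, a sequence bound by Otx factors, was in 2 of the 6 genes, Dct and Trpm1, against 6.25%. The Dct promoter held both kinds of sequence and is printed in full on the strand of the gene, chr14:118052247-118052496, minus strand, with CATGTG-type matches on either strand and the TAATCC match in capitals.

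Dct promoter: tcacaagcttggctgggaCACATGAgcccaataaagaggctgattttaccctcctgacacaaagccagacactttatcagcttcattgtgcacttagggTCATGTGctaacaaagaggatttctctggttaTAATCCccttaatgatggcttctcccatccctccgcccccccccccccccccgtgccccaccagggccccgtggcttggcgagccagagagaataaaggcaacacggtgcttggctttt

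The Trpm1 promoter, chr7:64153585-64153834, plus strand, held the same pair of sequences, with the Otx-type match on the other strand as GGATTA.

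Trpm1 promoter: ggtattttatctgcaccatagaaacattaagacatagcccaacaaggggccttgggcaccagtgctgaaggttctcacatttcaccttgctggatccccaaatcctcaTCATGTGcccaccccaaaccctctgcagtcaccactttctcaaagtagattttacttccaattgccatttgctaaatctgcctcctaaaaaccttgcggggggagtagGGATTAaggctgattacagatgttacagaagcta

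A match is a description of the sequence, and binding was not measured in these data.

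One array stood apart. Median intensity was 18.1 in mutant 8711 and 28.6 to 34.5 in the other 5 arrays, and the ratio of 3′ to 5′ signal of the Gapdh control probe sets was 93.6 against 4.26 to 15.0. Values without that array are given beside the results it moved most. The deposited values are linear intensities scaled by the authors, and log2 differences below are mutant minus control on the scale log2(intensity + 1.7), which understates changes of dim genes. Intensities of different probe sets are not comparable with each other, and each gene is described first by its brightest probe set. Sums of intensity over a list, given below to compare arrays, are therefore set mostly by the brightest probe sets in it.

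All 9 measured genes had higher mutant than control means, and their median log2 difference was 1.11, against 0.03 over all 12282 genes tested. All 18 probe sets passed the filter on dim probe sets, and all 18 had a log2 difference above 0, against 45.5% of the 27022 probe sets tested. Of the 18, 15 had mutant values above all control values, against 7.08%. In 8 of the 9 genes, all but Pmel, the 3 mutant values lay above the 3 control values, against 9.44% of all genes tested. At an unadjusted limma p under 0.05, 7 of the 9 were higher, against 4.4% of all genes, and 6 of the 9 had a log2 difference above 1, against 2.28%. No gene passed adjustment over all probe sets: in limma with Benjamini-Hochberg adjustment, 0 of the 9 genes and 0 of the 27022 probe sets (0%) had an adjusted p under 0.05, while an unadjusted p under 0.05 was reached by 817 with a higher value (3.02%) and 689 with a lower value (2.55%). Without mutant 8711 all 9 genes had mutant values above the controls, against 15.3% of all genes, all 9 had an unadjusted p under 0.05, against 5.46%, and 0 passed adjustment. Without control 9266, 4 of the 9 were higher at an unadjusted p under 0.05, against 2.61% of all genes.

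**Figure D1:**
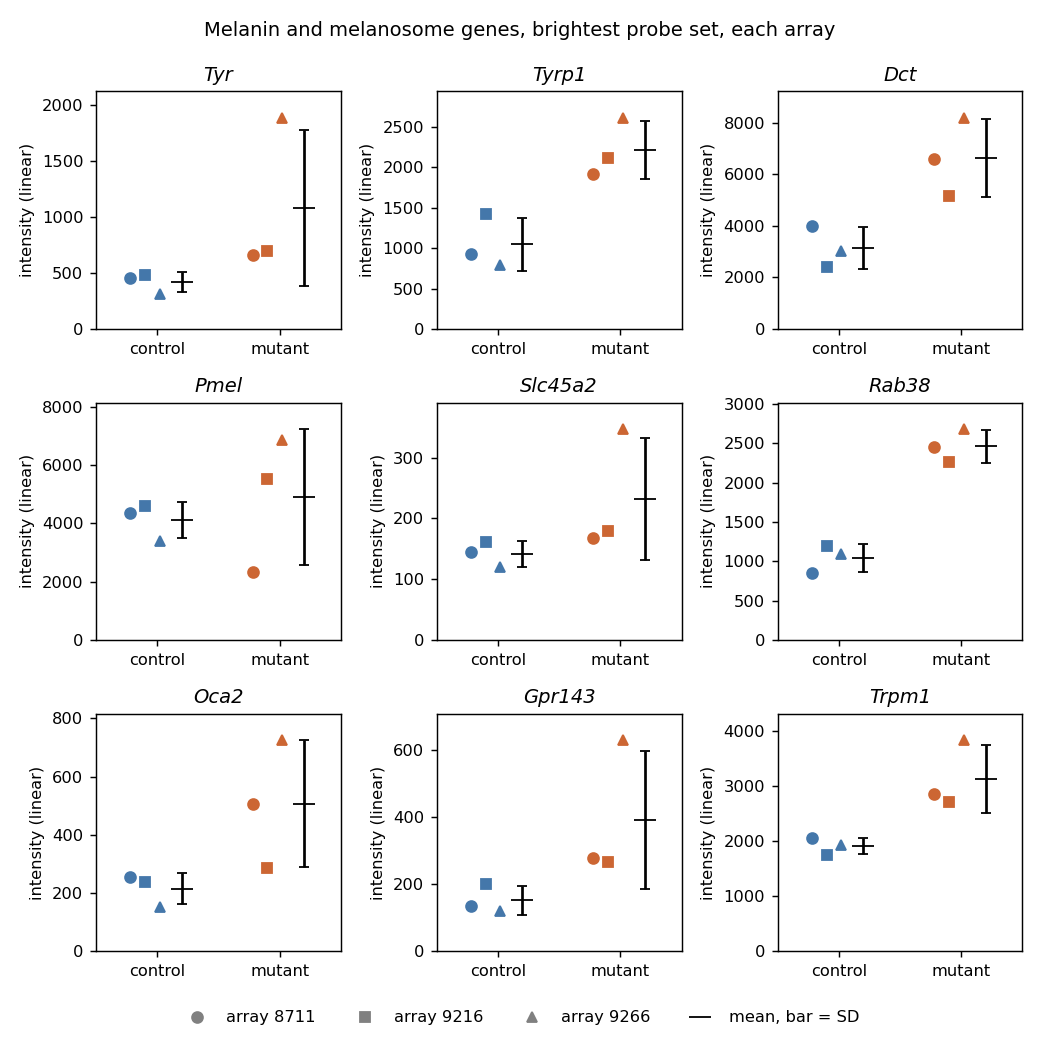
Linear intensity of the brightest probe set of each gene in each array, with controls in blue and mutants in orange, marker shape giving the title number, and the black line and bar the mean and SD of 3 arrays. Mutant 9266 is the highest array in all 9 genes, and Pmel is the gene in which a mutant array, 8711 at 2320, lies below the controls.

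For the melanin-synthesising enzymes, the mutant mean was 2.58 times the control mean in Tyr and 2.11 times in both Tyrp1 and Dct. Tyr had intensities of 458, 482 and 316 in controls 8711, 9216 and 9266, and 658, 697 and 1889 in the mutants in the same order. The groups did not overlap, and mutant 9266 stood far above the other mutants. Control arrays averaged 419 ± 89.8 (SD, n = 3) and mutant arrays 1081 ± 699.6 (SD, n = 3), giving a log2 difference of 1.21 (SE 0.44, limma adjusted p = 0.851), and without mutant 9266 the difference was 0.72. A second Tyr probe set read 264, 442.5 and 209 in control arrays and 724.5, 741 and 935 in mutant arrays, for a log2 difference of 1.45 (SE 0.31, limma adjusted p = 0.505). There the mutants lay close to each other and the groups did not overlap either. The dimmest Tyr probe set, at 23.5 to 60.8 in the controls and 51.2 to 146 in the mutants, had a difference of 1.05 with groups that overlapped.

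Tyrp1, which stabilises tyrosinase and acts later in the pathway, had intensities of 925.5, 1415 and 797 in controls 8711, 9216 and 9266 and of 1909.5, 2112 and 2609 in the mutants. The lowest mutant value was above the highest control value, that of control 9216. Control arrays averaged 1046 ± 326 (SD, n = 3) and mutant arrays 2210.2 ± 359.9 (SD, n = 3), giving a log2 difference of 1.11 (SE 0.25, limma adjusted p = 0.531). Its other probe sets had differences of 1.08 and 0.92, neither with overlapping groups, so all 3 Tyrp1 probe sets gave nearly the same difference.

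Dct, the dopachrome tautomerase, read 4009.7, 2395 and 3037 in control arrays and 6575, 5176 and 8190.7 in mutant arrays. The groups did not overlap, and the controls spread more than those of Trpm1 or Rab38 on the log2 scale. Control arrays averaged 3147 ± 813 (SD, n = 3) and mutant arrays 6647 ± 1509 (SD, n = 3), giving a log2 difference of 1.09 (SE 0.24, limma adjusted p = 0.516). Leaving out 1 array at a time, the difference ran from 0.90 to 1.28.

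Pmel, the structural protein of the melanosome fibrils, was the exception. Its single probe set had 4342, 4605 and 3409 in controls 8711, 9216 and 9266, and 2320, 5506 and 6871 in the mutants. Mutants 9216 and 9266 lay above every control and mutant 8711 below every control. Control arrays averaged 4119 ± 628 (SD, n = 3) and mutant arrays 4899 ± 2336 (SD, n = 3). The log2 difference was 0.12 (SE 0.40, limma adjusted p = 0.951), with a 95% interval from -0.82 to 1.07, which includes both 0 and 1. Without mutant 8711, the array with the high 3′ to 5′ ratio, the difference was 0.59 (SE 0.17, limma adjusted p = 0.365). Without mutant 9266, mutant 9216 or control 9266 it was -0.19, -0.03 or -0.01. All 6 values were far above the filter level, an intensity of 15.1, so the gene was detected in the controls too.

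**Figure D2:**
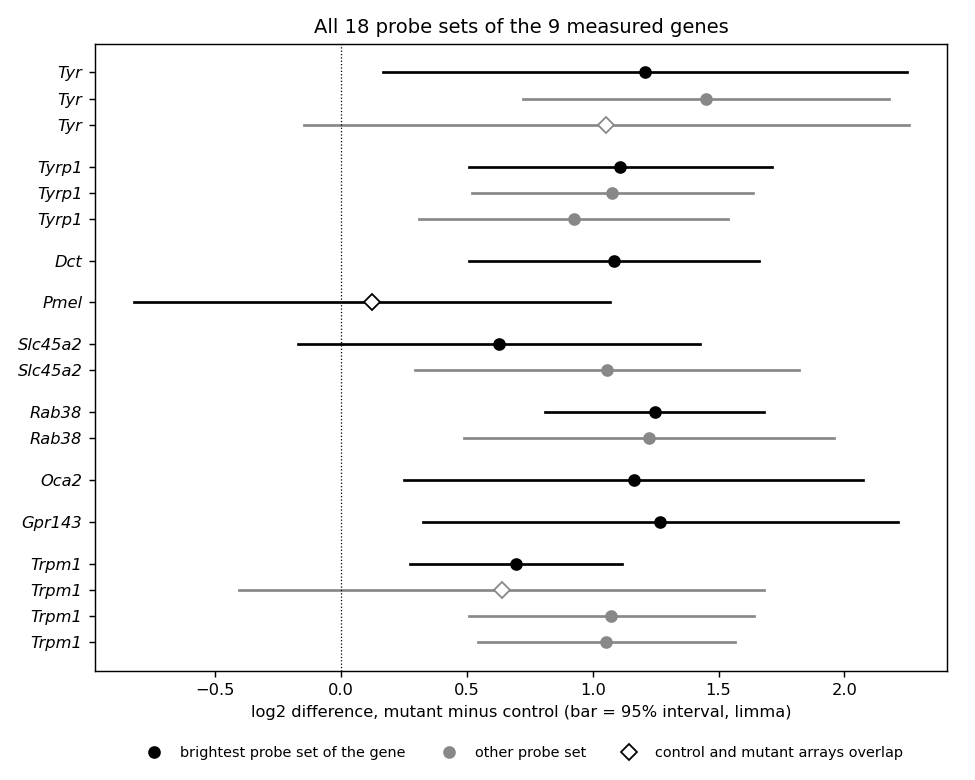
Log2 difference, mutant minus control, of all 18 probe sets, with the limma 95% interval as a bar, black for the brightest probe set of a gene and grey for the others, and open diamonds where control and mutant arrays overlap. All 18 points lie above 0, from 0.12 for Pmel to 1.45 for a Tyr probe set, and the Pmel interval runs from -0.82 to 1.07.

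Among the transporters and channels, Oca2, a melanosomal chloride channel protein, had 255, 237.5 and 153.5 in controls 8711, 9216 and 9266 and 507.5, 287 and 725 in the mutants. The mutants spread widely, with 9216 close to the controls. Control arrays averaged 215 ± 54.3 (SD, n = 3) and mutant arrays 507 ± 219 (SD, n = 3), giving a log2 difference of 1.16 (SE 0.38, limma adjusted p = 0.776). Slc45a2, a transporter that affects melanosome pH, read 145, 162 and 119.5 in control arrays and 168, 179 and 347 in mutant arrays. Mutants 8711 and 9216 were only just above the controls, and the log2 difference of 0.63 (SE 0.34, limma adjusted p = 0.852) was 0.30 without mutant 9266. A dimmer Slc45a2 probe set separated the groups further, reading 47.1, 50.5 and 59.7 in control and 84.5, 101 and 157 in mutant arrays, with a difference of 1.06 (SE 0.32, limma adjusted p = 0.709).

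Trpm1, a cation channel of pigment cells that is also used by retinal bipolar cells later in life, had 2052, 1753 and 1937 in controls 8711, 9216 and 9266 and 2855, 2707 and 3840.0 in the mutants. Its controls were the tightest of the 9 genes relative to their mean, and every mutant value lay above them. Control arrays averaged 1914 ± 151 (SD, n = 3) and mutant arrays 3134 ± 616 (SD, n = 3), giving a log2 difference of 0.70 (SE 0.18, limma adjusted p = 0.574). Its 3 dimmer probe sets had differences of 0.64, 1.07 and 1.05. The one at 0.64 had overlapping groups, with a control value of 1677 in control 9266 and a mutant value of 1063 in mutant 9216, and a difference of 0.31 without mutant 8711.

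Rab38 and Gpr143 act in the traffic and the size control of melanosomes. Rab38, a small GTPase, read 849.7, 1192 and 1095.5 in control arrays and 2448, 2260.5 and 2681 in mutant arrays. The mutant arrays lay close together, and the gap between the groups was wide. The log2 difference was 1.25 (SE 0.18, limma adjusted p = 0.356, the smallest of the 9 genes), and from 1.10 to 1.35 with 1 array left out. The identifier of this probe set carries the suffix x, which marks probes that may bind other transcripts, but a second Rab38 probe set without that suffix read 826, 666.5 and 909.5 in control and 1971, 1208 and 2687 in mutant arrays, with a difference of 1.22 (SE 0.31, limma adjusted p = 0.574).

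Gpr143, a receptor in the melanosome membrane that limits melanosome growth, had 136, 201 and 118 in controls 8711, 9216 and 9266 and 277, 265 and 628 in the mutants. As for Tyr, the groups did not overlap and mutant 9266 was far above the other mutants. Control arrays averaged 152 ± 43.4 (SD, n = 3) and mutant arrays 390.2 ± 206 (SD, n = 3), giving a log2 difference of 1.27 (SE 0.40, limma adjusted p = 0.737), or 0.87 without mutant 9266.

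The order of the differences was Gpr143, Rab38, Tyr, Oca2, Tyrp1, Dct, Trpm1, Slc45a2 and Pmel. The differences from Gpr143 to Dct, 1.27 to 1.09, spanned less than their standard errors of 0.24 to 0.44, that of Rab38 (0.18) apart. Of all genes tested, 1.10% had a larger difference than Gpr143, 1.80% than Dct, 5.53% than Trpm1, 6.86% than Slc45a2 and 39.6% than Pmel. Differences between members were not tested.

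The genes also varied together from array to array. Mutant 9266 was the highest of the 6 arrays for all 9 genes, and control 9266 was the lowest control for 6 of the 9. The median deviation of the 9 genes from the control mean was 0.09, 0.20 and -0.26 on the log2 scale in controls 8711, 9216 and 9266, and 0.90, 0.75 and 1.37 in the mutants. Over the 6 arrays, Pearson's r between pairs of genes lay between 0.71 and 0.99 for the 28 pairs without Pmel and between 0.14 and 0.63 for the 8 pairs with it. After subtracting each group's mean, the median r over all 36 pairs was 0.61 and 34 pairs were above 0. These are descriptions of 6 arrays, which share their RNA extract and scaling across genes.

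**Figure D3:**
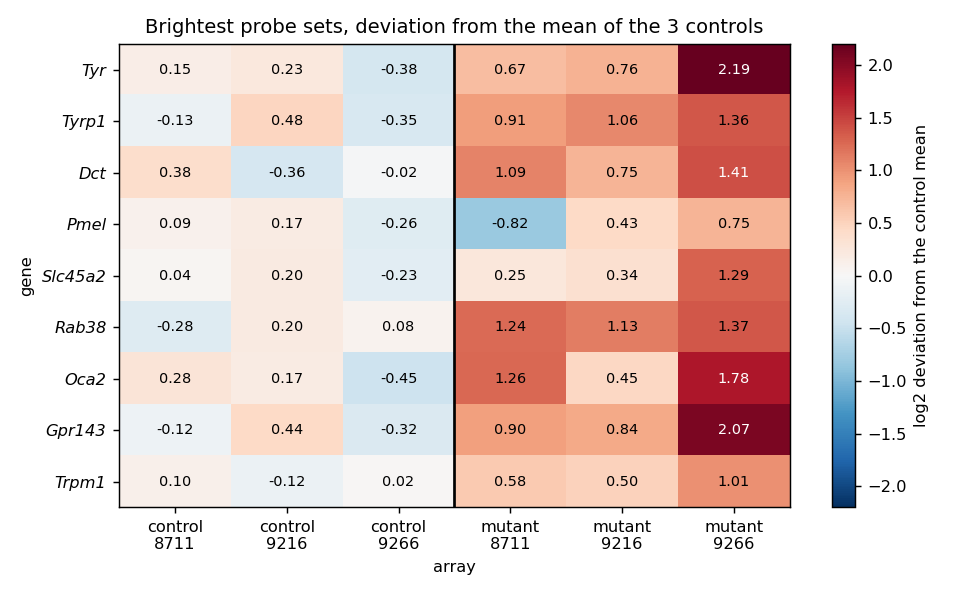
Log2 deviation of each gene's brightest probe set from the mean of the 3 controls, one column per array, red for above and blue for below. The mutant 9266 column is the highest in every row, at 2.19 for Tyr and 2.07 for Gpr143, and Pmel in mutant 8711, at -0.82, is the only mutant cell below 0.

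Genes outside all lists with the most similar values over the 6 arrays were ranked by Pearson's r with the mean log2 deviation of the 9 genes. The highest were Lmo1, a LIM-only transcriptional cofactor (r = 0.9995), Dock5, an exchange factor of the Rac GTPase (0.999), and Gm128, a predicted gene (0.998). They were followed by Papss2, which makes the sulfate donor of sulfation reactions (0.994), Acta2, smooth muscle actin (0.993), Acot11 (0.9898), Sh3gl2 (0.9896) and Acsl6 (0.986). Papss2 had the largest difference of these, from 22.4 ± 5.54 (SD, n = 3) in control to 134 ± 103 (SD, n = 3) in mutant arrays, or 2.26 on the log2 scale (limma adjusted p = 0.536). Lmo1 and Gm128 were dim in the controls, at means of 16.6 and 13.8. With 6 arrays and so many genes, values of r this high are a ranking only.

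Transcription factors of the pigment epithelium were read beside these genes. Mitf had a log2 difference of 0.92 (SE 0.15, limma adjusted p = 0.373), and Tfec, its relative in the pigment epithelium, of 1.33 (SE 0.21, limma adjusted p = 0.356). Otx2, a homeobox factor needed for the pigment epithelium, had 1650, 1479 and 1306 in controls 8711, 9216 and 9266 and 2077, 3961 and 6149.6 in the mutants. The groups did not overlap, and as for Tyr, Tyrp1, Pmel and Slc45a2 the lowest mutant was 8711 and the highest 9266. The Otx2 difference was 1.33 (SE 0.38, limma adjusted p = 0.684), and 1.74 without mutant 8711. Over the 6 arrays, r with the mean deviation of the 9 genes was 0.94 for Otx2, 0.92 for Mitf, 0.81 for Tfec and -0.13 for Otx1. Of the 7 transcription factors tested, 4 had mutant values above all controls in their brightest probe set (Mitf, Tfec, Otx2 and Pax6), against 9.44% of all genes. A dimmer Mitf probe set read 143, 130 and 173 in control and 60.3, 161 and 293 in mutant arrays. Its difference was -0.06, with overlapping groups. Dimmer Pax6 probe sets that were tested had differences of 0.21, -0.53 and -0.32, all with overlapping groups. In the one at -0.53, mutant 8711 read 26.5, under every control (108.6 to 164.3), and mutants 9216 and 9266 read 195.8 and 164.5, above them. In the one at -0.32, mutants 8711 and 9266 both lay under every control. Tfe3, Tfeb and Otx1 had differences of -0.27, -0.56 and -0.24 with overlapping groups, and of -0.16, -0.03 and -0.01 without mutant 8711.

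Differences in the wider machinery of the melanosome were smaller. Of 33 other genes of melanosome biogenesis and transport, 32 had a probe set and 31 were tested. Of these, 25 had a log2 difference above 0, with a median of 0.17, against 53.6% of all genes above 0. Mutant values lay above all controls for 4 of the 31 (9.44% of all genes), and 2 were higher at an unadjusted limma p under 0.05 (4.4% of all genes), with 0 lower (2.52%). No member passed adjustment. Without mutant 8711, 9 of the 31 had mutant values above the controls, against 15.3% of all genes, and 6 were higher at an unadjusted p under 0.05, against 5.46%, with a median of 0.27. These 6 were Bace2, Sytl2, Rab27a, Gpnmb, Ap3b1, a subunit of a sorting adaptor, and Slc7a11, a cystine transporter that was dim. In the same fit 1 of the 31 was lower at that unadjusted p, against 487 of 12282 genes. It was Lyst, at -0.63, with mutant values below all controls. Without control 9266, 1 of the 31 was higher at that unadjusted p, against 2.61% of all genes.

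The 2 genes higher at that p with all arrays were Bace2, a protease that processes Pmel, and Sytl2, a Rab27 effector. Bace2 had 125, 108 and 88.3 in controls 8711, 9216 and 9266 and 308, 180.1 and 452 in the mutants, which is a log2 difference of 1.45 (SE 0.37, limma adjusted p = 0.574). Sytl2 read 393, 424 and 363 in control and 956, 553 and 599 in mutant arrays, a difference of 0.79 (SE 0.25, limma adjusted p = 0.744). Both had groups that did not overlap, as had Myrip, a linker of Rab27a to myosin, at 0.97, and Mreg, melanoregulin, at 0.23.

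Rab27a, the GTPase that tethers melanosomes to actin motors, followed Pmel in its array pattern. It had 149, 151 and 132 in controls 8711, 9216 and 9266 and 39.8, 255 and 756.5 in the mutants, so mutant 8711 lay below and the other mutants above every control. The log2 difference was 0.46 (SE 0.97, limma adjusted p = 0.921), and 1.60 (SE 0.42, limma adjusted p = 0.296) without mutant 8711. Gpnmb, a relative of Pmel found in pigment cells and macrophages, had 99.3 in mutant 8711, under the controls at 119 to 141.5, and 206 and 611 in the other mutants. Its difference was 0.82, and 1.43 without mutant 8711. In a dimmer Gpnmb probe set mutant 8711 was not under the controls: it had 43.5 to 55.3 in the controls and 216, 90.2 and 307 in mutants 8711, 9216 and 9266, a difference of 1.91 (SE 0.47, limma adjusted p = 0.544).

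Other genes encode the complexes that sort cargo to melanosomes and related organelles. Across Hps1, Hps3, Hps4 and Hps5, the Ap3 subunits and the Bloc1s subunits with Dtnbp1 and Snapin, every gene tested had overlapping groups. By brightest probe set, their differences ran from -0.46 to 0.51. Without mutant 8711 the groups no longer overlapped for Ap3b1, at 0.64 (SE 0.22, limma adjusted p = 0.449), and Snapin, at 0.28. A dimmer Ap3b1 probe set read 201, 313.5 and 111 in control and 11.9, 308 and 305 in mutant arrays. With all arrays its difference was -0.83. Rab32, a relative of Rab38, had a difference of 0.34 (SE 0.33, limma adjusted p = 0.854), and Mlana, a melanosome membrane protein that was dim, of 0.77 (SE 0.48, limma adjusted p = 0.852), both with overlapping groups. Atp7a, the copper pump that supplies tyrosinase, had 0.28, and a dimmer Atp7a probe set had -0.76 with overlapping groups.

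**Figure D4:**
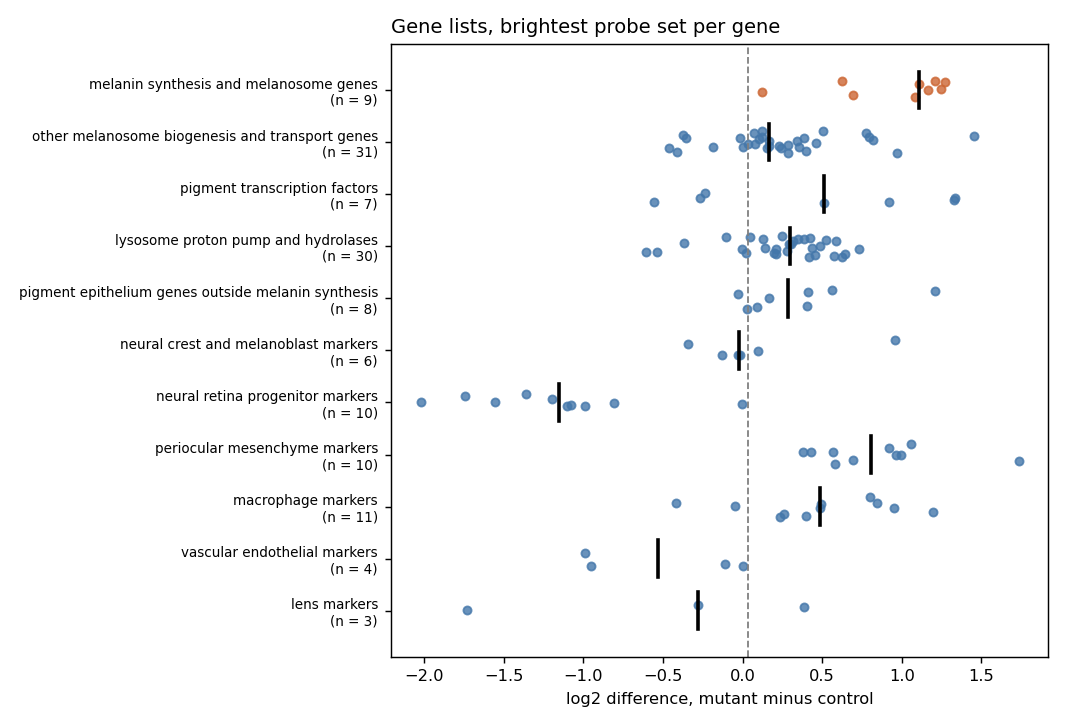
Log2 difference, mutant minus control, of every tested gene (brightest probe set) in each list, with the list median as a black bar and the median of all genes, 0.03, as a dashed line. The melanin synthesis and melanosome genes have a median of 1.11, the other melanosome genes of 0.17 and the neural crest and melanoblast markers of -0.02.

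Lysosomes share their origin with melanosomes. Of 30 lysosomal proton pump and hydrolase genes tested, 25 had a difference above 0, with a median of 0.30, and 8 had mutant values above all controls (9.44% of all genes). Among them were Ctsl, cathepsin L, at 0.57 (SE 0.18, limma adjusted p = 0.733), and Npc1, a cholesterol transporter, at 0.62 (SE 0.24, limma adjusted p = 0.852). Of 15 pigment epithelium genes outside melanin synthesis with a probe set, 8 passed the filter, and Rpe65 and Rgr, the visual cycle genes, were at most 5.7 in every array. Rlbp1, the retinaldehyde-binding protein, was the 1 of these 8 with mutant values above all controls, a share near the 9.44% of all genes. It read 185, 137 and 98.6 in control and 355, 200.2 and 442 in mutant arrays, a difference of 1.21 (SE 0.38, limma adjusted p = 0.736).

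Melanin genes are expressed in both pigment lineages, so markers of the neural crest lineage were read beside them. Of 11 neural crest and melanoblast markers with a probe set, 6 passed the filter. Of these 6, 2 had a difference above 0, against 53.6% of all genes. Their summed intensity was 659 to 843 in the controls and 659 to 904.5 in the mutants, and most of it came from Snai2, a transcription factor of early neural crest, at 444.5 to 748 over the 6 arrays. Sox10, which defines the neural crest glial and melanocyte lineage, read 30.0 ± 9.60 (SD, n = 3) in control and 29.0 ± 7.01 (SD, n = 3) in mutant arrays. Kit and Ednrb, the receptors of migrating melanoblasts, had differences of -0.34 and 0.09 with overlapping groups, and of 0.07 and -0.13 without mutant 8711. Mc1r, the melanocortin receptor, was dim, at 7.1 to 16.9 in the controls and 19.6 to 32.8 in the mutants. Foxd3, Cdh19 and S100b were under the filter level of 15.1 in every array, Pax3 was under it on average, and none of the list was at 0.

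Markers of other tissues differed between the groups as well. All 10 neural retina progenitor markers tested had a difference below 0, against 46.4% of all genes, with a median of -1.15, and 7 of the 10 had mutant values below all controls, against 5.43%. Without mutant 8711, 9 of the 10 had a difference below 0, against 5793 of 12282 genes, and Lhx2 was at 0.04. In that fit 8 had mutant values below all controls, against 1351 of 12282 genes. The 10 markers had summed intensities of 7660 to 9709 in the controls and 3875 to 4875 in the mutants. All 10 periocular mesenchyme markers had a difference above 0, against 53.6%, with a median of 0.81 and sums of 1116 to 2356 and 2810.0 to 3281.5. Of these 10, 4 had mutant values above all controls, against 9.44%, and 7 without mutant 8711, against 15.3%. Of 11 macrophage markers 9 had a difference above 0, against 53.6%, with a median of 0.48 and sums of 1575 to 2208 and 2545 to 3088.5. Of these 11, 3 had mutant values above all controls, against 9.44%, and 5 without mutant 8711, against 15.3%. Of 4 vascular markers tested, 3 had a difference below 0, against 46.4%, with a median of -0.53, and -0.34 without mutant 8711. Of these 4, 1 had mutant values below all controls, against 5.43%. Of 3 lens markers tested, 2 had a difference below 0, with a median of -0.28, and -1.07 without mutant 8711. Vascular and lens markers had sums that overlapped between the groups. RNA of neural retina, mesenchyme and macrophages was thus in the dissected tissue of both groups, and its part in the differences of the melanin genes was not tested.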

How the data were processed

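Expression was read on 6 Affymetrix arrays, 3 control and 3 FGFR mutant, grouped by their titles. The submitters' processing notes name MAS5, and its settings are not given in the sources used here. Each deposited value is a linear intensity of 1 probe set on 1 array. All arrays share a 2% trimmed mean of 150, so the values had been scaled before they were deposited, and no further normalization was applied.

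After removal of 64 manufacturer controls from the 45101 probe sets, 34945 carried 1 gene symbol in the platform annotation, 932 several and 9160 none. The 10th percentile of all values, 1.7, was added before taking log2. Probe sets whose mean lay under the 40th percentile (an intensity of 15.1) were left out, which kept 27022, for 12282 genes. Groups were compared by limma 3.58.1 (lmFit, then a trended and robust eBayes; R 4.3.3, statmod 1.5.0), and p-values were adjusted by Benjamini-Hochberg over all 27022. The fit was tested on simulated data. Each gene was represented by its probe set of highest mean. Figures used matplotlib 3.10.9.

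The genes and lists were chosen with earlier results of these data known. Named were all probe sets of the listed genes, up to 5 genes of smallest p in each other list, a few other pigment genes, and the 8 genes most similar over the arrays. Mreg, Rpe65, Rgr, Foxd3, Cdh19, S100b, Otx1, Tfe3, Slc7a11, Lyst, Lhx2, Snai2 and the sorting complex genes were named after their values were seen. Promoter sequences are from RefSeq (GRCm38.p6).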

Additional observations from a re-analysis of the deposited data

How the results depend on the processing

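In all, 18 alternatives were run: added values of 1 and 16, no filter or one at the 60th percentile, centring on the median, quantile normalization, array weights, the title number as a block, eBayes with neither trend nor robust, the mean of a gene's probe sets, a threshold of 0.10, and 7 fits that left out an array or both 8711 arrays. The log2 difference of each of the 9 genes stayed above 0 in all of them, except that of Pmel, which was -0.01 without control 9266, -0.03 without mutant 9216 and -0.19 without mutant 9266, against 0.59 without mutant 8711. No gene of the 9 passed adjustment in 17 of the 18. With array weights 2 did, Tyrp1 (limma adjusted p = 0.0344) and Rab38 (0.0239), among 184 probe sets in all, and the median of the 9 was 0.76. Controls 8711, 9216 and 9266 had weights of 5.98, 0.63 and 1.52 in that fit, so its control mean leaned on control 8711. Mutants 8711, 9216 and 9266 had weights of 0.15, 1.59 and 0.73. With 1 array left out, 4 to 9 of the 9 genes were higher at an unadjusted limma p under 0.05. The 4 were without control 9266, against 2.61% of all genes, and the 9 without mutant 8711, against 5.46%. From 8 to 9 had groups that did not overlap, with 9 without mutant 8711, against 15.3% of all genes. Their median ran from 0.86 to 1.25, 0 passed adjustment, and 0 to 1 of all probe sets passed (1 also without both 8711 arrays). Of the 31 other melanosome genes, 1 to 6 were higher and 0 to 1 lower at an unadjusted limma p under 0.05 with 1 array left out. Without control 9266 it was 1 higher, against 2.61% of all genes, and without mutant 8711 it was 6, against 5.46%. The median of these genes ran from 0.13 to 0.27. They were 8 higher and 1 lower with array weights, and 4 higher with a median of 0.12 for the mean of all probe sets. Without both 8711 arrays 5 were higher with a median of 0.25, and the median was 0.28 with median centring. Shares of all genes called in these fits are not given here, so the counts are not read as results about these genes. Same-numbered arrays had correlations of their deviations of 0.05, 0.48 and -0.11, and 2 of the 6 arrays correlated best with their own number. With 3 arrays per group this cannot show whether same-numbered arrays were paired. The labels do not state a pairing, so the number was used as a block only as an alternative. With the title number as a block, 6 of the 9 genes were higher at an unadjusted p under 0.05, against 4.54% of all genes, and 0 passed adjustment. The cause of these shifts was not tested. Signal over background limits Mlana, Mc1r, Myrip, Slc7a11 and the dim Tyr probe set. Over the 6 arrays Myrip ran from 11.1 to 49.5 and Slc7a11 from 7.5 to 58.1, against a filter level of 15.1.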
